A study of Mus musculus with 21 samples.

Results

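Wells named DC1 were set against wells named DC0 in single-cell RNA libraries from mouse back skin. In libraries 1 to 7 there were 30 DC1 wells, 2 to 8 in each library, and 25 DC0 wells, 2 to 6 in each library. The rest of 152 DC1 wells were in library 9 and the rest of 149 DC0 wells in library 8, which are called the large plates below. Together these were 301 of the 1967 wells in the table, and members were taken by the prefix of the well name alone.

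All wells came from CD1 embryos at embryonic day 15, from back skin. Per the labels, live cells were sorted by flow cytometry into plates, and each plate became a library by SORT-seq (CEL-Seq2 run by robot), which reads the 3' end of each RNA and counts molecules by a barcode added to each before amplification (a unique molecular identifier, UMI). The DC1 and DC0 wells share strain, age, tissue and protocol, and no treatment or genotype is given for either. The study asked about the stages by which fibroblasts become a condensate. The labels do not say what DC0 stands for, and they do not say whether the prefixes of libraries 1 to 7 came from the sort or from clusters of cells. The series text says that clusters were used to find stages. If the prefixes follow such clusters, the genes compared here were partly used to define the groups, and the tests below then overstate the difference. In library 8 the DC0 wells and in library 9 the DC1 wells each fill an unbroken run of well numbers. The labels also do not say whether libraries are separate animals, so each p-value rests on the spread between libraries, which may be technical. In the edgeR test below that spread was mostly pooled over genes (median prior degrees of freedom 68.6, residual 6). A small edgeR p can therefore go with a gene whose own libraries disagree, as in Crabp1 and Cdkn1c below.

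The dermal condensate is a cluster of fibroblasts that gathers below a thickening of the epidermis, the placode, and becomes the dermal papilla of the hair follicle. Cells that join it respond to WNT, fibroblast growth factor and sonic hedgehog signals, leave the cell cycle, and change their receptors, adhesion and surrounding matrix. Cxcr4, Sox2, Sox18, Foxd1 and Tbx18 are known from other work as genes of this lineage in mouse skin.

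The summed UMIs of a library ran between 20122 and 163535 in DC1 and between 20707 and 191382 in DC0. They came to 1436924 in DC1 of library 9 and 1475360 in DC0 of library 8. Single wells held 68 to 44537 UMIs in DC1 and 679 to 60704 UMIs in DC0 of libraries 1 to 7, and 1 of these wells held fewer than the median of 431 UMIs in wells named for spike-in RNAs, as did 6 DC1 or DC0 wells of libraries 8 and 9. Over the 7 libraries the median well held 17167 ± 12674 UMIs in DC1 and 16077 ± 11949 UMIs in DC0 (SD, n = 7; p = 0.734, exact paired permutation test, two-sided, adjusted 0.734 over 3 quantities). The spike-in share of the median well was 2.21% ± 1.19 in DC1 and 2.59% ± 1.31 in DC0 (n = 7), lower in DC1 in 6 of 7 libraries (exact permutation p = 0.0313, adjusted 0.0938, where the smallest p possible is 0.0156). The summed level of 8 condensate markers lay between 2044 and 3479 CPM (UMIs of a gene scaled to the same total in every sum) in DC1 and between 909 and 4467 CPM in DC0, against a median of 176 CPM in wells named as fibroblasts. Both names therefore sat with the condensate marker genes, at levels that overlapped.

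Some sums rest on few cells. In library 7 a single well supplied 93.5% of the DC0 UMIs, and in library 1 a single well supplied 85.5% of the DC0 UMIs and another 62.7% of the DC1 UMIs. These sums stood apart in several genes below, so the count of genes is also given without those libraries. Sums are of few cells and hold whatever share of each cell's RNA was captured, so a lower level in a sum may be fewer cells with the RNA or less RNA in each.

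The promoters below are shown for genes that differed most between the names or that act in WNT signalling. They are the RefSeq sequences of build GRCm38.p6, 250 bases before and 50 bases after the annotated start, written 5' to 3' on the gene's strand. Capitals mark the core of the TCF/LEF motif, CTTTGA, or its reverse complement TCAAAG. Cxcr4, at chr1:128592250-128592549 (- strand), holds no such match.
Cxcr4: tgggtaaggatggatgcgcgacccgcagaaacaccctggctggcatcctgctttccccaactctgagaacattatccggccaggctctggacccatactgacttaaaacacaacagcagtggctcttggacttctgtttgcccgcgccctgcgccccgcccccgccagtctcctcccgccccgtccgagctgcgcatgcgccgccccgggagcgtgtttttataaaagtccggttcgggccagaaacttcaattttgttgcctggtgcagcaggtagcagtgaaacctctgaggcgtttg
Nrp2, at chr1:62703067-62703366 (+ strand), holds a match that starts 146 bases before the gene's start.
Nrp2: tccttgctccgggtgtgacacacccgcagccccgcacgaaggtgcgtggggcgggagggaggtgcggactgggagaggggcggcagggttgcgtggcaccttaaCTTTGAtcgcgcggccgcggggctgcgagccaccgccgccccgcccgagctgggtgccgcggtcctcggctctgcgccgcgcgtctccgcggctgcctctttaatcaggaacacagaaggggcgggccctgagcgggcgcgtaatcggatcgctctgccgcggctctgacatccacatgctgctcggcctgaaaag
Frzb, at chr2:80447347-80447646 (- strand), holds a match 95 bases before its start, on the other strand.
Frzb: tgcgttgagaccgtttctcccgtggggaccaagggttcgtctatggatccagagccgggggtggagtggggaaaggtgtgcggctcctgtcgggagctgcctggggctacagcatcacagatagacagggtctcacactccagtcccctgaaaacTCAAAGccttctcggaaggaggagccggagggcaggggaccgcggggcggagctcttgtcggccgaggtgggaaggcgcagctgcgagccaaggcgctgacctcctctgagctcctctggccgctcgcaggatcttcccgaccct
Of the 19 genes that passed the test below, 15 had a promoter in the RefSeq table, and 4 of them (Nrp2, Frzb, Lepr and Dio2) held the motif on either strand. Lepr also had a further promoter without it. The motif was present in 16.0% of all 32851 promoters of this length in the table, a share of promoters, where the count above is of genes. A match is a description of the letters and not a binding site.

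In DC1 wells, single genes were higher than in DC0 wells, among them the receptor genes Cxcr4, Nrp2, Lepr and Fzd2, the WNT antagonist Frzb and the protease gene Adamts15, and a smaller number, among them the retinoic acid binding protein gene Crabp1, were lower. No gene list had more than 1 member called higher or more than 1 called lower. The lists of condensate markers, of transcription factors, and of insulin-like growth factor and imprinted genes had 1 of each. With 0.347% of all genes called, most lists of their size would hold no call. The lack of further calls in a list below thus does not set its members apart from other genes. Of 5480 genes tested in libraries 1 to 7, 13 (0.237%) were higher and 6 (0.109%) lower in DC1 (0.347% in either direction; edgeR quasi-likelihood test, library in the model, Benjamini-Hochberg adjusted p under 0.05), and 212 had an unadjusted p under 0.05. The groups did not overlap in 3 of the 19 genes called, Adamts15, Cxcr4 and Igfbp4, against 0.146% of all genes tested. Of the 13 genes that were higher, 9 were higher in each of the 7 libraries, while 0 of the 6 lower genes were lower in each of the 7. The counts were 6 and 1 without the library term and 5 and 0 with DESeq2. Leaving out a library moved the counts as well. They were 9 and 3 without library 1, 9 and 1 without library 2, 6 and 2 without library 3, 10 and 1 without library 4, 9 and 4 without library 5, 5 and 1 without library 6, and 29 and 12 without library 7, which included all 19 genes.

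The calls of Cxcr4, Adamts15, Nrp2 and Igfbp4 were kept whichever of the 7 libraries was left out, with adjusted p-values up to 0.0293, 0.0139, 0.0457 and 0.0293 in that order (edgeR). Pdlim3 lost its call without library 6, Dio2 without library 3 or 4, Itih5 without library 3 or 6, and Sox11 without library 1 or 3. Crabp1 lost it without library 2, 4 or 6 (adjusted p up to 0.182), Fzd2 without library 2, 5 or 6, Lepr without library 2, 3, 5 or 6, and Frzb without library 1, 3, 4 or 6. Scn3a lost it without library 1, 3, 4 or 5 and could not be tested without library 6. Cblb and Tbx18 lost theirs without library 1, 2, 3, 4 or 6, and Cdkn1c and Nid1 without library 2, 3, 4, 5 or 6. Ptgfrn and Hist1h1c kept theirs only without library 7. The fold changes of all 19 kept their sign in each of these fits that tested them. These fits share most libraries with the fit that called the genes, so a kept sign was largely fixed in advance.

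The chemokine receptor Cxcr4, through which cells sense the chemokine Cxcl12, was separated in every library. Its gene lies at chr1:128588199-128592299. Its level per library was 61.4 to 398 CPM in DC1, with a median of 135 CPM, and 0 to 24.98 CPM in DC0, with a median of 0. Every DC1 library was above every DC0 library, and 5 of 7 DC0 libraries held no Cxcr4 UMI. The log2 fold change was 3.76 (SE 0.696, adjusted p = 0.0011, edgeR). Over the 7 libraries 66 UMIs were counted in DC1 and 4 in DC0.

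Adamts15, a secreted metalloprotease that cuts versican (chr9:30899155-30922452), had a similar shape. It was at 49.7 to 276.1 CPM in DC1 (median 103) and at 0 to 15.4 CPM in DC0 (median 0). The groups did not overlap, and the log2 fold change was 4.47 (SE 0.789, adjusted p = 0.0011, edgeR). The DC0 sums held 2 UMIs and the DC1 sums 55, a ratio of CPM of 25.2 with a 95% counting interval from 6.64 to 213, so the size of the difference is loosely bounded.

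Nrp2, a co-receptor for semaphorins and vascular endothelial growth factor (chr1:62703317-62818692), was at 506 to 1289 CPM in DC1 (median 794) and at 84.2 to 559 CPM in DC0 (median 279.3). The ranges met at their ends, yet DC1 was above DC0 within every library. The log2 fold change was 1.46 (SE 0.274, adjusted p = 0.0011, edgeR). It was called alone among the 24 axon guidance and ephrin genes tested (0.347% of all genes were called). In that list 13 members had a fold change above 0 and the median was 0.08, against 0.03 for all genes tested.

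**Figure D1:**
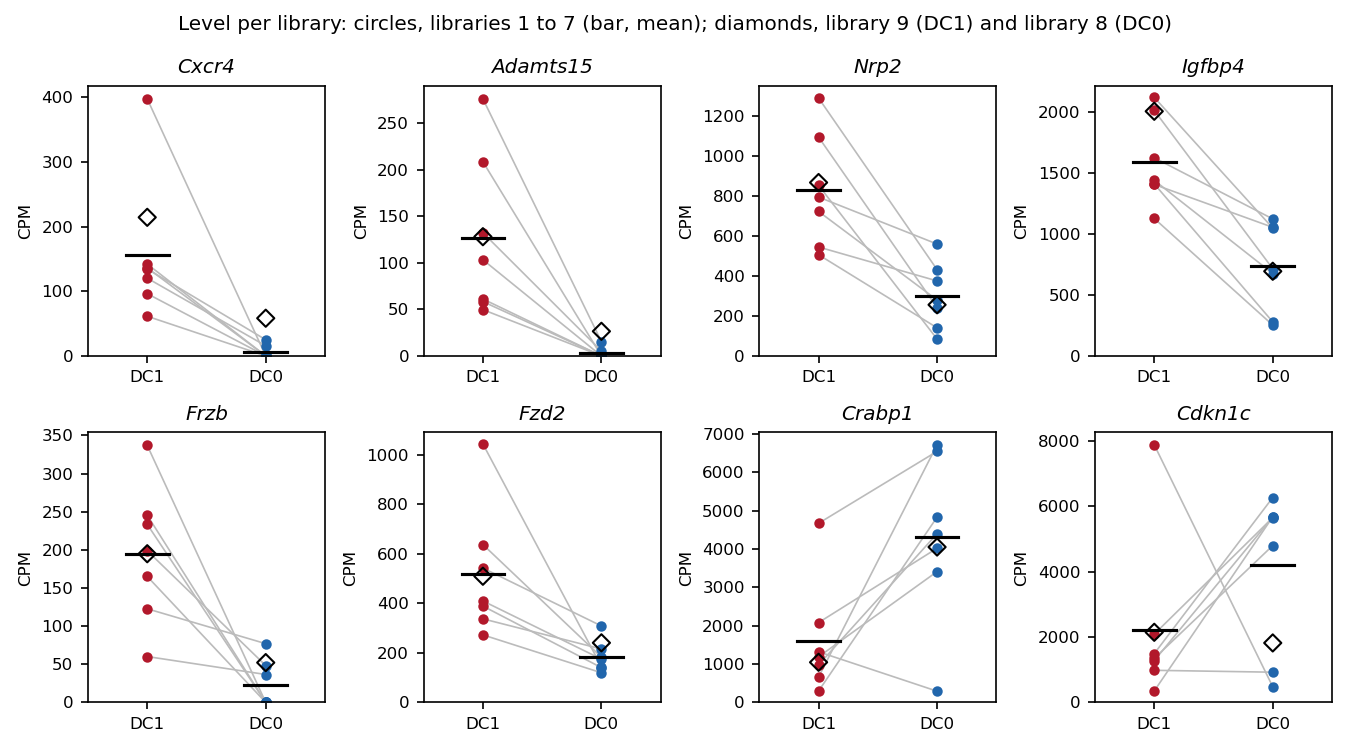
Levels (CPM, linear axes starting at 0) of 8 genes in DC1 (left) and DC0 (right). Filled circles are libraries 1 to 7, joined within a library, bars are their means, and open diamonds are DC1 of library 9 and DC0 of library 8. Cxcr4, Adamts15 and Igfbp4 do not overlap between DC1 and DC0 circles, while the DC1 circle of library 1 (7877 CPM) and the DC0 circles of libraries 1 and 7 go against the others in Cdkn1c.

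Frzb and Fzd2 were the WNT pathway genes called. Frzb, a secreted WNT antagonist, was at 60.1 to 337 CPM in DC1 (median 198.8) and at 0 to 77.0 CPM in DC0 (median 0), with 4 DC0 libraries at 0. It was higher in DC1 in 7 of 7 libraries, with a log2 fold change of 2.57 (SE 0.56, adjusted p = 0.00955, edgeR), and the call was lost without library 1 (2.35, adjusted p = 0.121). Fzd2, a frizzled receptor for WNT ligands, was at 273 to 1044 CPM in DC1 (median 410) and at 120 to 309 CPM in DC0 (median 175), higher in 7 of 7 libraries (log2 fold change 1.36, SE 0.3, adjusted p = 0.0112, edgeR). Fzd2 was the only call among 10 tested ligands, receptors and R-spondins, and Frzb the only call among 9 tested WNT inhibitors. Among all genes tested 0.347% were called. Rspo3, which strengthens WNT signals, did not pass in libraries 1 to 7 (log2 fold change 0.71, SE 0.41, adjusted p = 1, edgeR). None of 10 nuclear factors and targets of the pathway was called, and Lef1 had a log2 fold change of -0.46 (SE 0.274, adjusted p = 1, edgeR).

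Igfbp4, Nid1 and Itih5, which act outside the cell, rose as well. Igfbp4, which binds insulin-like growth factors, was at 1128 to 2122 CPM in DC1 (median 1441) and at 253 to 1124 CPM in DC0 (median 716), with no overlap (log2 fold change 1.18, SE 0.221, adjusted p = 0.0011, edgeR). Nid1, a basement membrane glycoprotein, was at 433 to 1350 CPM in DC1 (median 1205) and at 338 to 638 CPM in DC0 (median 575), higher in 6 of 7 libraries (log2 fold change 0.99, SE 0.235, adjusted p = 0.0275). Itih5, of the family of serum proteins that bind hyaluronan, was at 176.5 to 1924 CPM in DC1 (median 994) and at 99.9 to 1001 CPM in DC0 (median 435), with overlap (log2 fold change 1.40, SE 0.269, adjusted p = 0.0011). Nid1 was the only call among 40 tested matrix genes, of which 21 lay above 0 and 19 below. Adamts15 was the only call among 12 tested matrix proteases and their inhibitors (0.347% of all genes were called).

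The remaining higher genes were a mixed group. Lepr, the leptin receptor, was at 144.4 to 447 CPM in DC1 (median 272) and at 28.1 to 199.5 CPM in DC0 (median 57.5), higher in 6 of 7 libraries (log2 fold change 1.89, SE 0.409, adjusted p = 0.0092). Pdlim3, a protein that binds alpha-actinin in the actin cytoskeleton, was at 38.7 to 373 CPM in DC1 (median 149) and at 0 to 140.5 CPM in DC0 (median 0), with 5 DC0 libraries at 0 (log2 fold change 3.06, SE 0.583, adjusted p = 0.0011). Sox11, a transcription factor of the SoxC group, was at 1135 to 2358 CPM in DC1 (median 1342) and at 246 to 1348 CPM in DC0 (median 998), higher in 7 of 7 libraries (log2 fold change 0.99, SE 0.226, adjusted p = 0.015). Ptgfrn, a membrane protein of the immunoglobulin superfamily, was at 426 to 1044 CPM in DC1 (median 673) and at 200.2 to 531 CPM in DC0 (median 350), also higher in 7 of 7 (log2 fold change 1.04, SE 0.25, adjusted p = 0.0276).

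Scn3a, a subunit of a voltage-gated sodium channel, had 41 UMIs over 5 DC1 libraries and 0 UMIs in every DC0 library. Its level was at least 12.5-fold higher in DC1, taking 3 UMIs over the DC0 sums as the floor. Its adjusted p was 0.0275 (edgeR), although 2 DC1 libraries also held none, so the groups met at 0. The filter on counts did not use the names, and Scn3a met it through its DC1 sums alone. Cxcr4, Adamts15, Pdlim3, Frzb and Lepr, and Alx4 below, also met it in their DC1 sums but not in their DC0 sums. Dio2 met it in its DC0 sums but not in its DC1 sums. All of these genes thus entered the test only through the name in which they were high. Alx4, a homeobox transcription factor named for its unadjusted p, fell just short of the threshold (adjusted p = 0.0511). It was at 19.4 to 215 CPM in DC1 (median 64.2) and at 0 to 24.98 CPM in DC0 (median 0), and the 35 UMIs in DC1 against 2 in DC0 gave a ratio of 16.0 with a counting interval from 4.11 to 137.4.

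Among the 6 lower genes, Crabp1, which binds retinoic acid in the cytoplasm (chr9:54764748-54773110), was a highly expressed one. It was at 298 to 4669 CPM in DC1 (median 1188) and at 293 to 6714 CPM in DC0 (median 4397). DC1 was lower in 6 of 7 libraries, and library 7, where DC0 held 293 CPM, went the other way. The log2 fold change was -1.45 (SE 0.274, adjusted p = 0.0011, edgeR) with all libraries and -1.84 without library 7. Crabp1 was the only call among 7 retinoic acid genes tested (0.347% of all genes were called).

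Dio2, the deiodinase that makes active thyroid hormone, was at 0 to 42.8 CPM in DC1 (median 0) and at 0 to 562 CPM in DC0 (median 83.6), with 8 UMIs in DC1 and 74 in DC0 (log2 fold change -3.58, SE 0.681, adjusted p = 0.0011, edgeR). Cblb, a ubiquitin ligase that restrains receptor signalling, was at 0 to 449 CPM in DC1 (median 154.97) and at 46.2 to 1159 CPM in DC0 (median 534), lower in DC1 in 6 of 7 libraries (log2 fold change -1.51, SE 0.336, adjusted p = 0.0114, edgeR). Tbx18, a T-box transcription factor of mesenchyme, was at 117 to 385 CPM in DC1 (median 276.1) and at 185 to 1068 CPM in DC0 (median 638), lower in 6 of 7 libraries (log2 fold change -1.20, SE 0.295, adjusted p = 0.0325, edgeR). All 3 overlapped between DC1 and DC0, and without library 1 the calls of Cblb (adjusted p = 0.0904) and Tbx18 (adjusted p = 0.304) were lost.

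Cdkn1c, an inhibitor of cyclin-dependent kinases, and Hist1h1c, a linker histone listed by RefSeq as H1f2, make up the rest. Cdkn1c was at 350 to 7877 CPM in DC1 (median 1345) and at 479 to 6265 CPM in DC0 (median 5650), lower in DC1 in 5 of 7 libraries (log2 fold change -1.37, SE 0.329, adjusted p = 0.0276, edgeR). Library 1 went the other way with 7877 CPM in DC1 and 479 CPM in DC0, as did library 7 with 982 CPM in DC1 and 924 CPM in DC0. With a library left out the log2 fold change ran between -1.88 (without library 1) and -0.93 (without library 4), with adjusted p-values up to 0.761 (edgeR). Hist1h1c was at 0 to 256.7 CPM in DC1 (median 49.7) and at 30.8 to 638 CPM in DC0 (median 199.8), lower in 6 of 7 libraries (log2 fold change -1.83, SE 0.446, adjusted p = 0.0322, edgeR).

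Libraries 3, 5, 6 and 7 name the same flow cell in their descriptions and libraries 1, 2 and 4 do not, and the comparison was made again within each set. No gene passed among 4572 tested in the set on the shared flow cell (lowest adjusted p = 0.0894, 146 at an unadjusted p under 0.05, edgeR). No gene passed among 1256 tested in the other set (lowest adjusted p = 0.107, 82 at an unadjusted p under 0.05, edgeR). Of the 19 genes, 18 could be tested within the shared flow cell and 15 within the other set. The direction of the full comparison was kept in 18 of 18 and 15 of 15. Both sets are parts of the libraries in which the genes were called, so a kept direction was largely fixed in advance. The log2 fold change of Nrp2 was 1.30 on the shared flow cell and 1.82 in the other libraries, and that of Tbx18 was -0.58 and -2.31.

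The larger plates gave a separate reading of direction, DC1 of library 9 over DC0 of library 8. They hold 1 library a name, so plate and name cannot be told apart, no test was possible, and the intervals are exact 95% intervals of counts that cover counting error only. The 13 higher genes were higher in library 9 in 13 of 13 cases, 11 of them by more than 2-fold, and the intervals of all 13 ratios lay above 1. Of the 6 lower genes, 3 were lower in library 9 (Crabp1, Dio2 and Cblb) and 3 were higher (Cdkn1c, Hist1h1c and Tbx18). In all 16 of 19 genes called kept their direction, against 56.02% of the 5480 genes tested and 78.3% of the 212 with an unadjusted p under 0.05. Of 8938 genes with at least 30 UMIs over both plates, 7.71% were more than 2-fold higher and 5.07% more than 2-fold lower in library 9.

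Cxcr4 was at 214.3 CPM in DC1 of library 9 (interval 191 to 240) and 58.3 CPM in DC0 of library 8 (46.6 to 72.0), a ratio of 3.68. Adamts15 was at 128 CPM in DC1 and 26.4 CPM in DC0, a ratio of 4.84 with an interval from 3.41 to 7.03. Nrp2 was at 866 CPM in DC1 and 256 CPM in DC0, a ratio of 3.39. Cxcr4 and Adamts15 were thus present in DC0 of the larger plate. In the DC0 sums of libraries 1 to 7 a single UMI was worth 5.23 to 48.3 CPM. Those sums together held 448961 UMIs, of which 4 were of Cxcr4 and 2 of Adamts15 (mean levels 5.81 and 2.95 CPM). Why these DC0 levels were lower than in library 8 was not tested.

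Igfbp4 was at 2008 CPM in DC1 and 695 CPM in DC0, a ratio of 2.89, and Frzb at 195 CPM in DC1 and 52.2 CPM in DC0, a ratio of 3.73. Scn3a had 62 UMIs in DC1 and 2 in DC0, a ratio of 31.8 with an interval from 8.45 to 269. Ptgfrn had the smallest ratio of the 13, with 719.6 CPM in DC1 and 468 CPM in DC0 (1.54, interval 1.40 to 1.70). On the log2 scale the ratios of the 13 genes lay between 0.62 (Ptgfrn) and 4.99 (Scn3a), and those of Cxcr4 and Adamts15 were 1.88 and 2.28, below their fold changes in libraries 1 to 7.

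Crabp1 was at 1046 CPM in DC1 of library 9 and 4050 CPM in DC0 of library 8, a ratio of 0.258 with an interval from 0.244 to 0.273. Dio2 was at 33.4 CPM in DC1 and 65.1 CPM in DC0 (0.513, interval 0.355 to 0.733), and Cblb at 180 CPM in DC1 and 430 CPM in DC0 (0.419, interval 0.362 to 0.485). The other 3 turned. Cdkn1c was at 2144 CPM in DC1 and 1819 CPM in DC0 (1.18, interval 1.12 to 1.24), Tbx18 at 314 CPM in DC1 and 253 CPM in DC0 (1.24, interval 1.08 to 1.43), and Hist1h1c at 187 CPM in DC1 and 135 CPM in DC0 (1.39, interval 1.15 to 1.68). A lower level in DC1 was thus seen in both sets of libraries for Crabp1, Dio2 and Cblb and in the small sums alone for the other 3.

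**Figure D2:**
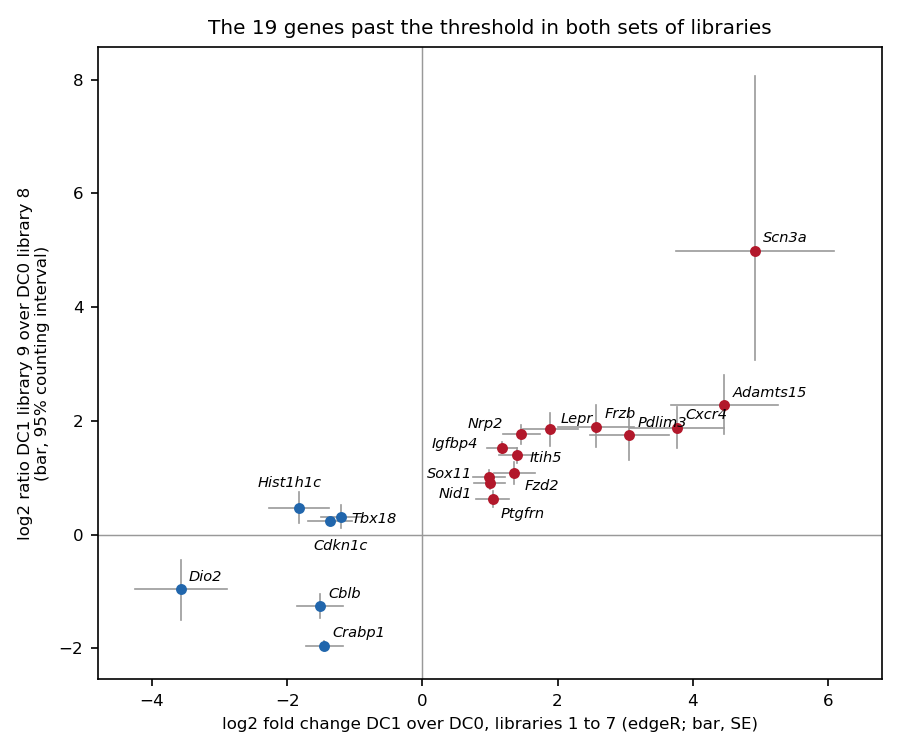
Log2 fold change of DC1 over DC0 in libraries 1 to 7 (horizontal, edgeR, bar 1 SE each way) against the log2 ratio of DC1 of library 9 over DC0 of library 8 (vertical, bar 95% counting interval) for the 19 genes called, red higher and blue lower in libraries 1 to 7. The 13 red points lie above 0 on both axes, and Hist1h1c, Tbx18 and Cdkn1c lie to the left of 0 and above it.

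The 2 large plates differed in other ways as well. Ribosomal RNA precursor Rn45s made up 4.24% of UMIs in DC1 of library 9 and 0.301% in DC0 of library 8, whereas its log2 fold change in libraries 1 to 7 was 0.08 (SE 0.251). The mitochondrial ribosomal RNA mt-Rnr2 was at 20450 CPM in DC1 of library 9 and 4136 CPM in DC0 of library 8, a ratio of 4.94, with a log2 fold change of -0.01 (SE 0.157) in libraries 1 to 7. The nuclear RNA Malat1 was at 2827 CPM in DC1 and 845 CPM in DC0 of the large plates, a ratio of 3.35, with a log2 fold change of 0.11 (SE 0.223) in libraries 1 to 7. The summed level of 9 keratinocyte markers was 455 CPM in DC1 of library 9 and 34.6 CPM in DC0 of library 8, with the keratin gene Krt5 at 218.5 CPM and 6.10 CPM. That sum ranged between 38.9 and 798 CPM in DC1 and between 0 and 393 CPM in DC0 of libraries 1 to 7. The 8 Schwann cell markers summed to 260 CPM in DC1 of library 9 and 90.8 CPM in DC0 of library 8, and 7 of the 8 were at 0 in every small sum of either name. With the ribosomal RNA rows left out of the totals, the direction was again shared by 16 of 19 genes. The part of the keratinocyte and Schwann cell markers, mt-Rnr2 and Malat1 in the ratios was not tested.

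Single wells of the large plates were compared at equal depth by drawing 3000 UMIs from each, which left 114 DC1 wells of library 9 and 94 DC0 wells of library 8. The 13 higher genes together had a median of 25.5 UMIs in DC1 wells (quartiles 20 and 32) and 11 UMIs in DC0 wells (quartiles 7 and 13). Only 1 of 94 DC0 wells, 1.06%, lay above the DC1 median. This sum is weighted to the abundant members. In DC1 of library 9 their levels ran from 43.1 CPM (Scn3a) to 2008 CPM (Igfbp4), so the sum does not speak for each gene. The 6 lower genes had a median of 6 UMIs in DC1 wells (quartiles 3 and 13.8) and 16 UMIs in DC0 wells (quartiles 6.25 and 29.5), and 21.9% of DC1 wells lay above the DC0 median. The shift of this sum was that of Crabp1, which had a median of 1 UMI in DC1 wells and 11 UMIs in DC0 wells. The other 5 together had a median of 4 UMIs in DC1 wells and 4 UMIs in DC0 wells, a split made after the values were seen. Single genes among them went opposite ways. Cblb was found in 30.7% of DC1 wells (exact binomial interval 22.4 to 40.0) and 54.3% of DC0 wells (43.7 to 64.6). Dio2 was also found in fewer DC1 wells. Hist1h1c was found in 41.2% of DC1 wells (32.1 to 50.8) and 22.3% of DC0 wells (14.4 to 32.1), and Tbx18 and Cdkn1c also in more DC1 wells.

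**Figure D3:**
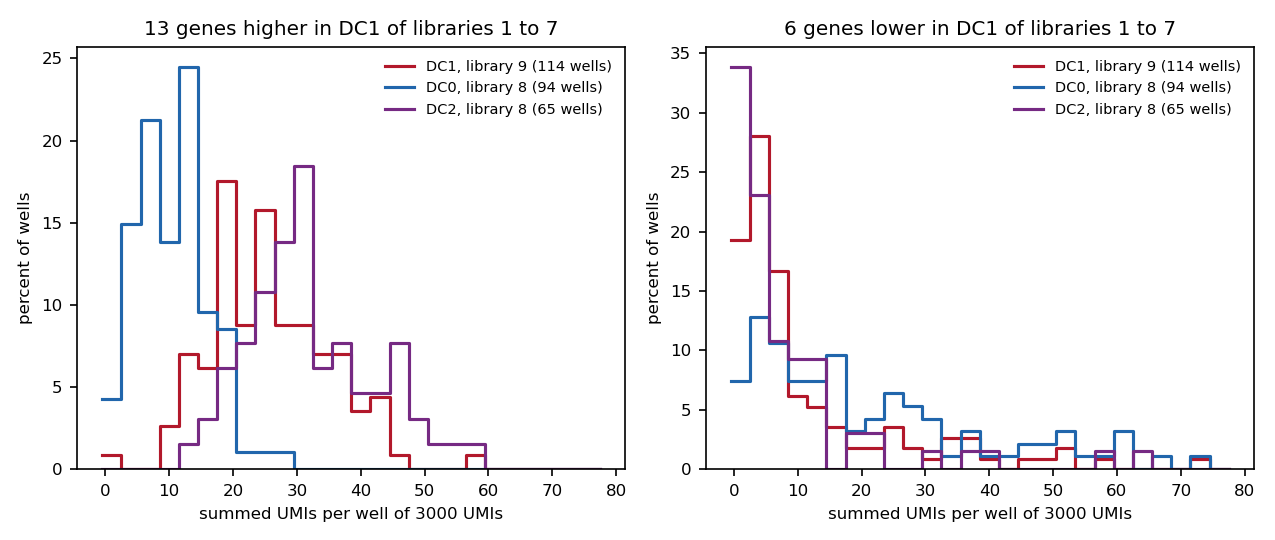
Percent of wells (vertical) by summed UMIs per well of 3000 UMIs (horizontal) for the 13 higher genes (left) and the 6 lower genes (right). Lines are DC1 of library 9 (red, 114 wells), DC0 of library 8 (blue, 94 wells) and DC2 of library 8 (purple, 65 wells); for the higher genes the medians are 25.5, 11 and 31 UMIs.

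By gene, a Cxcr4 UMI was found in 46.5% of DC1 wells of library 9 (exact binomial interval 37.1 to 56.1, covering counting error only) and 12.8% of DC0 wells of library 8 (6.77 to 21.2) at 3000 UMIs, and in 73.8% and 36.3% before thinning. Fibroblast-named wells of libraries 1 to 7 held it in 0.866% of 1155 wells at the same depth. Crabp1 was found in 62.3% of DC1 wells (52.7 to 71.2) and 94.7% of DC0 wells (88.02 to 98.3), against 85.5% of the fibroblast-named wells and 36.1% of spike-in wells before thinning, so a Crabp1 UMI alone does not mark a well. Dio2 was found in 4.39% of DC1 wells and 6.38% of DC0 wells, with intervals that overlap. Scn3a was found in 10.5% of DC1 wells and in 0 of 94 DC0 wells at this depth, and in 22.1% of DC1 wells and 1.61% of DC0 wells before thinning. In libraries 1 to 7, 25 of 30 DC1 wells and 21 of 25 DC0 wells reached that depth, a few in each library. A Lepr UMI was found in 57.1% ± 30.2 of DC1 wells and 7.14% ± 13.1 of DC0 wells (SD, n = 7), and a Frzb UMI in 73.8% ± 38.3 of DC1 wells and 7.14% ± 18.9 of DC0 wells (exact paired permutation test, each p = 0.0313, adjusted 0.198 over 19 genes). The smallest p that 7 libraries allow is 0.0156, so a single gene could not pass the adjustment, and the absence of a call in the 19 shares says nothing about their differences.

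Placed beside the neighbouring names in libraries 1 to 7, most higher genes went on to a higher mean in DC2 wells. The mean of the 13 higher genes was lower in fibroblast-named wells than in DC1 in 13 of 13 cases and higher in DC2 than in DC1 in 9 of 13. Among all tested genes with a fold change above 0 these shares were 72.1% and 37.3%. The 13 genes were called for a high level in DC1 of these same libraries. The count against fibroblast-named wells was thus largely fixed in advance. In 10 of 13 the fibroblast mean was also below that of DC0. Cxcr4 averaged 3.79 ± 2.49 CPM in fibroblast-named wells, 5.81 ± 10.3 CPM in DC0, 155.5 ± 110 CPM in DC1 and 401 ± 299 CPM in DC2 (SD, n = 7 each). Adamts15 averaged 16.3 ± 5.74 CPM in fibroblast-named wells, 2.95 ± 5.83 CPM in DC0, 127 ± 86.1 CPM in DC1 and 336 ± 164 CPM in DC2. The 6 lower genes had their highest mean of the 4 names in DC0 in 6 of 6 cases, and a lower mean in DC2 than in DC1 in 5 of 6. Among all tested genes with a fold change below 0 the shares were 48.6% and 48.8%, and since the genes were called for a higher level in DC0 than in DC1, the counts are a description. Library 8 held wells of both DC2 and DC0. There Cdkn1c was at 2822 CPM in DC2 and 1819 CPM in DC0, and Hist1h1c at 234 CPM in DC2 and 135 CPM in DC0, higher in DC2. The rest of the lower genes were lower in DC2 there. They were Crabp1 (650 CPM in DC2 and 4050 CPM in DC0), Dio2 (8.09 and 65.1), Cblb (187 and 430) and Tbx18 (208 and 253). Crabp1 averaged 2253 ± 275.04 CPM in fibroblast-named wells, 4315 ± 2163 CPM in DC0, 1599 ± 1464 CPM in DC1 and 356.5 ± 170.5 CPM in DC2. Differences to DC2 and fibroblast-named wells were not tested here, and neighbouring means overlap within 1 SD for many genes.

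**Figure D4:**
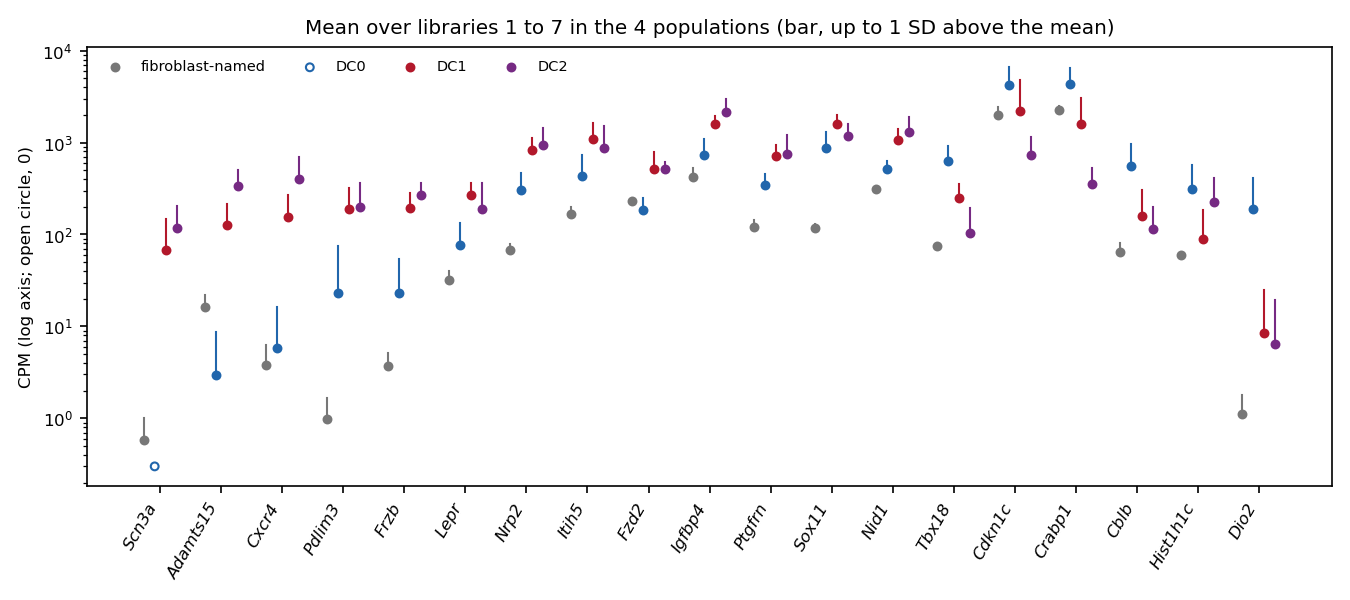
Mean level (CPM, log axis) over libraries 1 to 7 of the 19 genes in fibroblast-named, DC0, DC1 and DC2 wells, with a bar up to 1 SD above the mean and an open circle for 0. Genes run from the highest to the lowest fold change of DC1 over DC0. For the 6 genes on the right, from Tbx18 to Dio2, DC0 has the highest mean of the 4.

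Most genes known for the condensate were not called between DC1 and DC0, which was also true of all genes tested. Of 20 condensate markers, 19 could be tested, 1 rose (Cxcr4) and 1 fell (Tbx18), a larger share than the 0.347% called among all genes. The list was chosen with earlier results of these data known. It had 8 fold changes above 0 and 11 below, with a median of -0.04. Sox2, a transcription factor of the condensate, was at 12.9 to 153.4 CPM in DC1 (median 96.2) and at 0 to 319 CPM in DC0 (median 152; log2 fold change -0.54, SE 0.49, adjusted p = 1, edgeR). Sox18 had a log2 fold change of 0.34 (SE 0.375, adjusted p = 1), Foxd1 of 0.63 (SE 0.272, adjusted p = 0.995) and Prdm1 of -0.13 (SE 0.339, adjusted p = 1). These standard errors leave room for differences near 2-fold, so the test does not show that the levels were alike. In the large plates Sox2 was at 199.04 CPM in DC1 and 117 CPM in DC0, and Sox18 at 519 CPM in DC1 and 272 CPM in DC0. Over the 19 markers tested, 13 were above 0 and 6 below in the large plates (median log2 0.31). Dkk1, at 98.8 CPM in DC1 and 174.2 CPM in DC0, and Sdc1, at 445 CPM in DC1 and 705 CPM in DC0, were among the lower ones.

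None of 11 fibroblast growth factor genes, 14 bone morphogenetic protein genes, 12 activin and TGF-beta genes, 7 Notch genes or 8 hedgehog genes tested was called, counts near the 0.347% called among all genes. Inhba, a subunit of activin, was at 19.4 to 244.6 CPM in DC1 (median 144.4) and at 0 to 39.9 CPM in DC0 (median 28.1; log2 fold change 2.14, SE 0.613, adjusted p = 0.141, edgeR). It stood at 165 CPM in DC1 of library 9 and 13.6 CPM in DC0 of library 8, a ratio of 12.2 with an interval from 7.70 to 20.3. Dll1, a Notch ligand, was at 112 CPM in DC1 and 33.9 CPM in DC0 of the large plates (libraries 1 to 7, log2 fold change 1.86, SE 0.884, adjusted p = 1). Its targets Hey1 and Heyl stood at ratios of 3.16 and 3.12 there, with adjusted p = 1 for each in libraries 1 to 7. Over the 7 Notch genes tested, 6 were above 0 in libraries 1 to 7 (median log2 0.33) and 6 above 0 in the large plates (median log2 1.64), against medians of 0.03 for all tested genes in each.

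Twist2, a transcription factor of dermal fibroblasts, was lower in DC1 in 7 of 7 libraries and missed the threshold (log2 fold change -0.74, SE 0.192, adjusted p = 0.0603, edgeR). It was at 1074 to 1821 CPM in DC1 (median 1292) and at 1186 to 3815 CPM in DC0 (median 2075), and at 1076 CPM in DC1 and 2600 CPM in DC0 of the large plates. Without library 7 it passed (-0.78, adjusted p = 0.0072). Fgf10, a ligand made by the dermis, had a log2 fold change of -0.17 (SE 0.26, adjusted p = 1).

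Cell cycle genes did not agree between the sets of libraries. Of 45 tested genes of G2 and mitosis, 36 had a fold change above 0 in libraries 1 to 7 (median log2 0.46), and 40 were below 0 in the large plates (median log2 -0.65). Their summed level was 1070 to 12640 CPM in DC1 (median 2397) and 874 to 11136 CPM in DC0 (median 1628), and it was 3301 CPM in DC1 of library 9 and 5303 CPM in DC0 of library 8. No member was called, and the spread of this sum over libraries exceeds the difference of its medians. The 33 tested S phase genes had medians of -0.23 in libraries 1 to 7 and -0.40 in the large plates. Of 12 tested glycolysis genes, 11 were below 0 in libraries 1 to 7 (median log2 -0.29) and 10 in the large plates (median log2 -0.44), with no call. Cdkn1c was the only call among 15 tested cell cycle brakes and D-type cyclins (0.347% of all genes were called). Ccnd1, a D-type cyclin that drives cells into the cycle, had a log2 fold change of -0.54 (SE 0.23, adjusted p = 0.960) and stood at 646.5 CPM in DC1 and 1179 CPM in DC0 of the large plates.

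**Figure D5:**
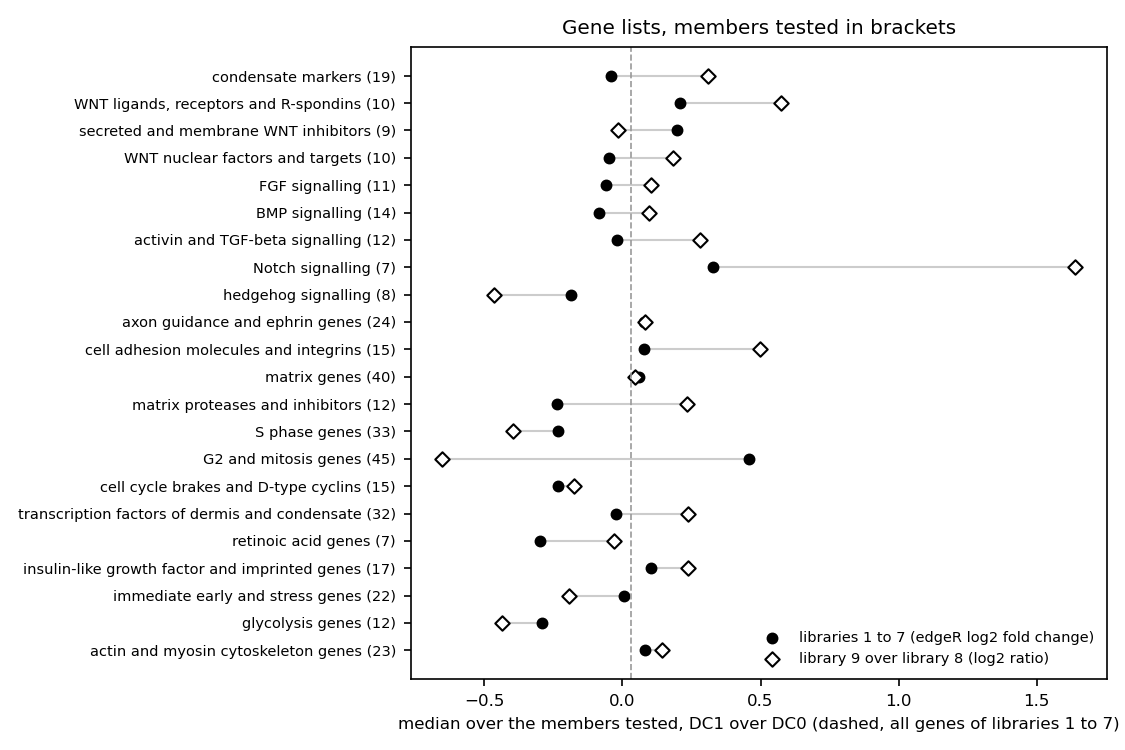
Median over the members tested (number in brackets) of the log2 fold change of DC1 over DC0 in libraries 1 to 7 (filled circles) and of the log2 ratio of DC1 of library 9 over DC0 of library 8 (open diamonds), for lists with at least 5 members tested. The list of G2 and mitosis genes lies at 0.46 and -0.65 on opposite sides of 0, and the Notch list lies at 0.33 and 1.64.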

How the data were processed

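Only the 9 single-cell libraries were used, not the 12 bulk samples. The authors deposited expected counts for each gene and well: UMIs adjusted for chance collisions among 4096 possible barcodes, a formula that every value met within 0.005. Processing notes of the submitters name build mm10 and list TopHat2 (version 2.0.3), BWA (0.6.2-r126), Cufflinks (2.1.1) and Bowtie2 without saying what each did. No depth scaling had been applied to the deposited counts. Rounding them to integers for the tests altered 13.5% of the nonzero values; the design had expected whole counts. Of 20370 rows, 86 were spike-ins and stayed out of totals and tests.

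UMIs were summed per library and name over sums of at least 2 wells. Genes with at least 30 counts over the 14 sums of DC1 and DC0 and a count in at least 4 sums went into edgeR 4.0.16 (quasi-likelihood fit, TMM scaling, library as a term, Benjamini-Hochberg adjustment at 0.05) under R 4.3.3, which was tested on simulated data. Each library is a plate that supplied both names, which pairs the sums, although the correlation of same-library deviations was only -0.051 to 0.184. Alternatives used limma 3.58.1 and DESeq2 1.42.0. Exact tests, thinning and intervals used Python 3.11.15, numpy 2.4.6, pandas 2.3.3 and scipy 1.17.1. Named genes were those with an adjusted p under 0.05, the next gene by unadjusted p up to 20, the condensate list and 12 further genes of WNT, Notch, activin and cell cycle pathways. The 23 gene lists, the 12 marker classes and the names compared were chosen with earlier results of these data known. Coordinates are of GRCm38.p6 from RefSeq.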

Additional observations from a re-analysis of the deposited data

Results flagged for a closer look

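In 8 of 37 groups of 7 libraries tested, a sum stood far from the other 6 (Dixon's test at the 95% level on its gap to the nearest sum). Chance flags about 1 in 20 groups only where values are normally spread. The flagged groups of Adamts15, Pdlim3 and Dio2 had 5 of 7 sums at 0, so the 8 cannot be read as an excess. Library 1 gave 4 of the 8. Its DC1 sum held 4669 CPM of Crabp1 (next highest DC1 library 2081 CPM), 449 CPM of Cblb (next 180 CPM) and 7877 CPM of Cdkn1c (next 2087 CPM), and its DC0 sum held 199.5 CPM of Lepr (next 77.0 CPM). Cxcr4 reached 398 CPM in DC1 of library 2, against 142 CPM in the next DC1 library. Dio2 was at 42.8 CPM in DC1 of library 6, next to 16.0 CPM. Pdlim3 was at 140.5 CPM in DC0 of library 4, next to 20.9 CPM. Adamts15 was at 15.4 CPM in DC0 of library 7, next to 5.23 CPM, which is a single UMI in each of those sums.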

How the results depend on the processing

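The 19 genes kept their direction in every alternative fit that could test them, and the counts of calls varied. The fits reuse libraries in which the genes were called, so a kept direction is not separate evidence. Counts are given as higher and lower genes, against 13 and 6. They were 6 and 1 with no library term (no replicate block), 5 and 0 with DESeq2 (136 genes at an unadjusted p under 0.05), 11 and 3 with limma-voom, and 3 and 0 with limma on mean CPM per well (348 unadjusted). They were 10 and 3 with wells of at least 3000 UMIs, 2 and 4 with at least 3 wells a sum, and 1 and 2 with wells thinned to 3000 UMIs (707 genes tested). With edgeR's default filter 864 genes were tested and 0 and 0 called (smallest adjusted p 0.05004, 67 at an unadjusted p under 0.05). With DC2 and fibroblast sums in the model they were 29 and 14. With DC0, DC1 and DC2 sums of libraries 1 to 9 they were 25 and 7, and 25 and 5 with no library term. Within the shared flow cell and within the other runs they were 0 and 0 (146 and 82 unadjusted). Leaving out each library in turn gave 5 to 29 higher and 1 to 12 lower genes, lowest without library 6 and highest without library 7. Of up to 27 alternative fits that tested a gene, the call was lost in 1 for Adamts15, 2 for Cxcr4, 5 for Igfbp4, Pdlim3 and Dio2, 6 for Nrp2, 7 for Scn3a, 9 for Crabp1 and Frzb, 10 for Itih5, Lepr and Fzd2, 14 for Cblb, Sox11 and Hist1h1c, 16 for Cdkn1c, 18 for Nid1, 19 for Tbx18 and 20 for Ptgfrn. With no library term the adjusted p of Crabp1 was 0.346, and with DESeq2 it was 1.00. Nrp2 and Igfbp4 also lost theirs with no library term. The direction in the large plates was shared by 16 of 19 genes also without the ribosomal RNA rows, an alternative chosen after seeing the data. Sums of at least 5 wells were not run, since no library had them for both names. The causes were not tested. Depth limits genes at 0 in small sums.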

Other observations

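Further genes, chosen after their values were seen, differed in the large plates without passing in libraries 1 to 7. Ebf1, a transcription factor, was at 191 CPM in DC1 of library 9 and 11.5 CPM in DC0 of library 8. Nfix, another transcription factor, was at 185 CPM in DC1 and 35.9 CPM in DC0, and Bmp3, of the bone morphogenetic protein family, at 60.5 CPM in DC1 and 5.42 CPM in DC0. Their adjusted p-values in libraries 1 to 7 were 0.688, 1 and 0.410 (edgeR). Rspo3 was at 334 CPM in DC1 and 48.8 CPM in DC0 of the large plates, a ratio of 6.84. The row named eGFP, a fluorescent protein, held 70.3 CPM in DC1 and 112 CPM in DC0 of the large plates and had a log2 fold change of 0.10 (SE 0.345, adjusted p = 1, edgeR) in libraries 1 to 7.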
